A study of Mus musculus with 16 samples.

Results

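The amyloid precursor protein (APP) family and the enzymes that process it were followed through the prefrontal cortex as 9 mouse genes, chosen by name as rows of a table of raw single-nucleus RNA-Seq counts that holds 19999 genes. They were App, Aplp1 and Aplp2 for the precursor family, Bace1 for β-secretase, Psen2, Ncstn and Aph1a for γ-secretase, Adam10 for α-secretase and Sorl1 for the sorting receptor. All 9 were found, and the sum of all nuclei gave enough counts to test each of them. The nuclei came from 16 male mice of 22 weeks, 4 in each of 4 groups. WT mice (strain B6;129) and 3xTg-AD mice (on the same background) were either exposed to repeated cycles of alcohol vapor or kept as controls. The groups were WT control, WT alcohol, 3xTg-AD control and 3xTg-AD alcohol. Alcohol mice received ethanol with pyrazole, an inhibitor of alcohol dehydrogenase, before vapor, and control mice received pyrazole in saline and breathed air, so pyrazole was common to all groups. 3xTg-AD mice carry human mutant APP and tau transgenes under a Thy1 cassette, which is active in neurons, and a knock-in allele. The human transgenes are not rows of the table, so App counts here are molecules assigned to the mouse gene. The genotype of the mice and the line that carries it cannot be told apart. The study asked how a history of alcohol intoxication acts on gene expression in mice with genetic susceptibility to Alzheimer's disease. Its tissue was taken days after the last vapor exposure and after water maze testing, so alcohol here means a past exposure.

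APP and its relatives APLP1 and APLP2 are membrane proteins with a large outer domain that is shed by proteases. ADAM10, the main neuronal α-secretase, cuts APP within the amyloid-β segment and so precludes its release, whereas BACE1 cuts at the start of that segment. The remaining stub is cut inside the membrane by γ-secretase, a complex of a presenilin such as PSEN2, nicastrin (Ncstn), APH1 and PEN2 (Psenen), which yields amyloid-β after the BACE1 cut. SORLA, the product of Sorl1, is a sorting receptor that holds APP in the Golgi and returns it from endosomes, away from the compartments where BACE1 acts, and loss of SORL1 function raises the risk of Alzheimer's disease in people.

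The table held 114512 nuclei and 216742276 unique molecular identifiers (UMIs, counted molecules), with 9622031 to 17544364 UMIs and 4955 to 9096 nuclei per mouse and a median of 1543 UMIs per nucleus. Cell classes were rebuilt from clusters of the nuclei named by fixed marker genes, and the 9 genes were kept out of the clustering. A class is therefore called "-like", and a difference from other cell type assignments of these nuclei may come from the rebuilt names. In 7 of 8 tested classes every fixed marker was at least 1.5 times higher than in the other classes, and in the Glutamatergic-like class 6 of 9 were. In all, 31.5% of the nuclei fell into no class, 36.7 ± 5.44% (SD, n = 4) in WT alcohol mice and 26.5 ± 4.17% to 29.5 ± 8.23% in the other groups. A set of 1817 nuclei with Meis2 interneuron markers, 1124 of them from WT control mouse 27, was kept out of the GABAergic-like class. Within the Glutamatergic-like class, the largest clusters without a neuron subclass name held 4376 and 4282 nuclei, with Rorb among their leading genes. Values of neuron subclasses leave these nuclei out. The rRNA-like transcript Gm42418 exceeded 10000 CPM (molecules scaled to the same total in every mouse) in WT control mice 26 and 27 and 3xTg-AD control mouse 12. All 3 were control mice, and no alcohol mouse exceeded this limit. Runs without them kept 13 mice, with mice 28 and 36 as the only WT controls. No doublets were removed, and of 112806 distinct barcodes 1694 occurred in more than 1 library, with at most 27 shared by any pair.

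The level of each gene is given as CPM of a mouse's summed UMIs, scaled by the trimmed mean of M-values (TMM). Counts were tagged at the 3′ end of transcripts, so levels are compared between classes for a gene and not between genes. Slc17a7, the vesicular glutamate transporter of glutamatergic neurons, served as a gauge of stray RNA. It reached 25.8% of its Glutamatergic-like level in the GABAergic-like class, 49.6% in the Astrocyte-like and 69.4% in the Microglia-PVM-like class (microglia and perivascular macrophages). Slc17a7 was also used to name the classes, so these shares are partly set by the naming. The part of this stray RNA in the levels below was not tested.

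The 3 precursor genes peaked in different classes. App (chr16:84949685-85173766, minus strand, mm10) was highest in the Endothelial-like class at 1013 ± 251 CPM (SD, n = 16) and lowest in the Glutamatergic-like class at 407 ± 56.7 CPM, a 2.49-fold range. The Endothelial-like level lay above that of the Oligodendrocyte-like class, next in order at 734 ± 95.4 CPM, in 14 of 16 mice, with a within-mouse difference of 0.436 ± 0.391 log2 units. The remaining neighbours did not differ beyond their spread. Aplp1 (chr7:30434982-30445535, minus strand) stood at 703 ± 151 CPM in the Oligodendrocyte-like class, against 425 ± 73.3 CPM in the Microglia-PVM-like class, which came next, a difference of 0.713 ± 0.306 log2 units seen in 15 of 16 mice. The other 7 classes lay between 314 and 425 CPM, and none of these neighbours differed beyond its spread. Aplp2 (chr9:31149557-31211815, minus strand) was highest in the GABAergic-like class at 474 ± 58.7 CPM and lowest in the Glutamatergic-like class at 269 ± 31.8 CPM, 1.77-fold apart. Its only step beyond the spread of neighbouring classes was from the Astrocyte-like (345 ± 39.0 CPM) to the Microglia-PVM-like class (279 ± 65.98 CPM).

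Among neuron subclasses App ran from 348 ± 44.9 CPM in L2/3 IT-like (intratelencephalic) neurons to 1192 ± 343 CPM in the Sncg-like interneurons, a 3.43-fold range. The Sncg-like level exceeded that of the Vip-like interneurons (752 ± 147 CPM) in all 16 mice, by 0.629 ± 0.284 log2 units. L5 ET-like (extratelencephalic) neurons held 366 ± 65.0 CPM, below L5 IT-like neurons at 424 ± 74.5 CPM in all 16 mice. Aplp2 followed a similar order, with 596 ± 101 CPM in Lamp5-like and 589 ± 122 CPM in Vip-like interneurons against 220 ± 28.3 CPM in L5 ET-like neurons. The Pearson correlation of the App and Aplp2 levels (log2) was 0.701 over 17 classes and subclasses, which share libraries and depth. Aplp1 varied least of the precursor genes among neurons, from 252 ± 49.0 CPM in Pvalb-like to 402 ± 73.4 CPM in Vip-like interneurons.

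**Figure D1:**
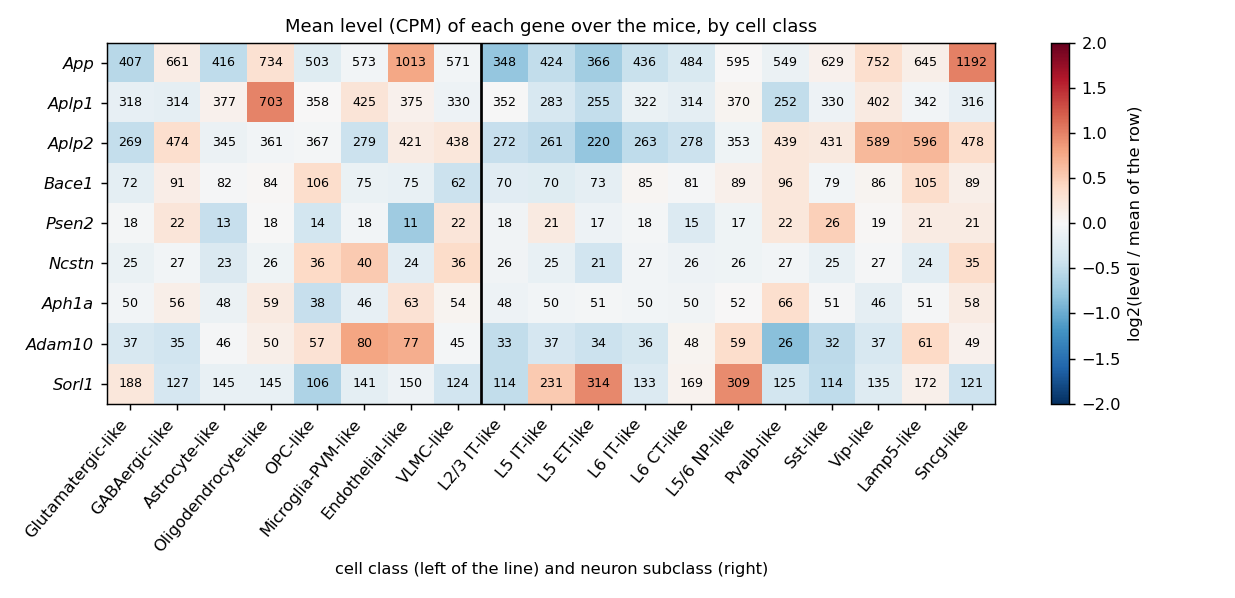
Mean level in CPM (numbers) of the 9 genes in each cell class (left of the line) and neuron subclass (right), over 16 mice (15 for VLMC-like), with color for the log2 ratio to the mean of the gene's row. App stands out in the Endothelial-like (1013 CPM) and Sncg-like (1192 CPM) columns, Aplp1 in the Oligodendrocyte-like column (703 CPM) and Sorl1 in the L5 ET-like (314 CPM) and L5/6 NP-like (309 CPM) columns.

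Among the secretase genes, Bace1 (chr9:45838580-45864399, plus strand) was highest in the OPC-like class (oligodendrocyte precursors) at 106 ± 22.1 CPM and stood at 72.4 ± 6.103 CPM in the Glutamatergic-like class. Adam10 (chr9:70678997-70780229, plus strand) showed the widest range of the secretases, from 35.4 ± 6.64 CPM in the GABAergic-like to 79.7 ± 22.7 CPM in the Microglia-PVM-like class, 2.25-fold. Without the mice of high Gm42418 the Endothelial-like mean (79.09 CPM) lay above the Microglia-PVM-like one (75.24 CPM). The microglial level of Adam10 was 217 ± 63.3% of its Glutamatergic-like level, above the 69.4% at which Slc17a7 stood there. Among neurons Adam10 was lowest in Pvalb-like interneurons (25.9 ± 8.37 CPM) and highest in Lamp5-like interneurons (60.7 ± 15.7 CPM). For Bace1 and Adam10 no neighbouring classes or subclasses differed beyond their spread.

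The γ-secretase genes were sparse. Psen2 (chr1:180227004-180263438, minus strand) stood at 17.5 ± 2.97 CPM in the sum of all nuclei, with 87 to 317 UMIs per mouse. Ncstn (chr1:172066013-172082795, minus strand) stood at 24.9 ± 2.56 CPM and Aph1a (chr3:95893969-95898288, plus strand) at 47.6 ± 4.68 CPM. Psen2 had enough counts to test in 3 of 8 classes, Ncstn in 4 and Aph1a in 5, and no pair of neighbouring classes differed beyond its spread for any of them. Ncstn had its highest mean in the Microglia-PVM-like class (40.0 ± 15.8 CPM) and Aph1a in Pvalb-like interneurons (65.6 ± 11.1 CPM), on 2 to 19 and 13 to 35 UMIs per mouse. Bace1, Ncstn, Aph1a and Sorl1 overlap genes annotated on the opposite strand (Rnf214 and Gm16536, Copa, Car14, and Gm16214), as does App (Gm10791, Gm49227 and Gm49226). Whether the counting used strand is not given in the sources used here. The part of reads of these partners in the counts was not tested.

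Sorl1 (chr9:41964720-42124297, minus strand) had its highest class mean in the Glutamatergic-like class, at 188 ± 31.3 CPM, and its lowest in the OPC-like class, at 106 ± 24.98 CPM. Its level in the other classes was 57.5 to 80.3% of the Glutamatergic-like level, beside 49.6 to 69.4% for Slc17a7 in the glial and vascular classes, and no neighbouring classes differed beyond their spread. In the GABAergic-like class the share was 68.8 ± 10.7% for Sorl1 and 25.8 ± 5.72% for Slc17a7. Among the named neuron subclasses Sorl1 was layered. L5 ET-like (314 ± 50.2 CPM) and L5/6 NP-like neurons (near-projecting, 309 ± 63.9 CPM) had the highest levels and did not differ beyond their spread. L5 IT-like neurons followed at 231 ± 40.2 CPM, lower than L5/6 NP-like neurons in all 16 mice by 0.416 ± 0.219 log2 units. L2/3 IT-like neurons stood at 114 ± 27.03 CPM and Sst-like interneurons at 114 ± 23.1 CPM, 2.76-fold below the L5 ET-like level.

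The genes whose levels were most like those of a member over the 17 classes and subclasses were ranked by Pearson correlation among 13876 genes. Each is the top of many correlations over few units, and none was tested. For App they were Dpm3 (r = 0.891), Rpp21 (0.857) and Ctif (0.856), for Aplp1 Rtn4 (0.942), Kctd13 (0.923) and Mog (0.89), and for Aplp2 Lmbrd1 (0.918), Glg1 (0.905) and Rbms3 (0.905). Bace1 was closest to Zfp2 (0.858), Scrib (0.849) and Tyw5 (0.818), and Adam10 to Mef2d (0.905), Mak16 (0.868) and D030056L22Rik (0.858). Slc5a3 (0.868) and Gm12905 (0.826) were among the genes closest to Psen2. Ncstn was closest to Ppp4c (0.855), Dhx9 (0.844) and Cybb (0.838), and Aph1a to Plekhh2 (0.791), Map7d1 (0.766) and Nploc4 (0.759). Psen2, Ncstn and Aph1a had enough counts to test in only 6, 6 and 8 of 11 subclasses, besides the class counts given above. Sorl1 was closest to Fezf2 (0.831), a transcription factor of deep-layer projection neurons, then, in order, to Mpv17l and Tecpr1 (0.766). Rtn4 is also a member of the fixed list of pathway genes described below, and Fezf2 was among the markers that named the L5 subclasses.

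Between genotypes, Sorl1 was the only gene of the 9 that passed the test. Summed over all nuclei of a mouse, it stood at 219.5, 212.8, 183.2 and 199.9 CPM in WT control mice and 182.0, 203.8, 185.1 and 210.2 CPM in WT alcohol mice. It was 169.5, 151.7, 165.9 and 147.2 CPM in 3xTg-AD control mice and 153.3, 144.7, 157.1 and 193.3 CPM in 3xTg-AD alcohol mice. Of the 8 3xTg-AD mice 7 lay below every WT mouse, and the exception was 3xTg-AD alcohol mouse 34. The means were 199.6 ± 14.6 CPM in WT and 160.3 ± 15.8 CPM in 3xTg-AD mice (SD, n = 8 each). Sorl1 fell by 0.32 ± 0.07 on the log2 scale (SE) in 3xTg-AD against WT mice averaged over treatment (edgeR quasi-likelihood test, Benjamini-Hochberg adjusted p = 0.0207). Of the 9 genes 1 passed the test in this comparison, and 3.28% of all 16767 genes tested did. An unadjusted p under 0.05 was reached by 3 of the 9 and by 16.2% of all genes. The median log2 fold change was -0.063 over the 9 genes and -0.0062 over all genes. In a sum of all nuclei, fewer cells of a type and less RNA per cell cannot be told apart. Without the 3 mice of high Gm42418 the Sorl1 value was -0.28 (edgeR adjusted p = 0.0695). It was -0.305 without 3xTg-AD control mouse 13 (0.0552) and -0.297 without WT alcohol mouse 18 (0.0509).

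Sorl1 was also lower within cell classes. Its log2 fold change in 3xTg-AD against WT mice was below 0 in 8 of 8 classes and 11 of 11 neuron subclasses, and reached an unadjusted p of at most 0.05 in 6 and 7 of them. Of all class and subclass tests 11.4% and 10.6% had an unadjusted p under 0.05. Classes of a mouse share a library, and the subclasses are parts of the neuronal classes. Such counts, here and below, are therefore not of independent values. In the Glutamatergic-like class it fell by 0.36 ± 0.09 on the log2 scale (edgeR adjusted p = 0.0234), from 211 ± 18.4 CPM in WT to 165 ± 22.3 CPM in 3xTg-AD mice (SD, n = 8 each), and 7 of 8 3xTg-AD mice again lay below every WT mouse. This was 1 call among 56 tests of the genes over classes, where 1.55% of all tests were called. Of the 56, 9 had an unadjusted p under 0.05 (11.4% of all tests). The Astrocyte-like class gave -0.36 ± 0.11 (edgeR adjusted p = 0.15), the Oligodendrocyte-like class -0.47 ± 0.18 (0.343) and the GABAergic-like class -0.24 ± 0.09 (0.267). Whether the change differed between classes was not tested. The glial values stand on 9 to 67 Sorl1 UMIs per mouse in the Oligodendrocyte-like and 62 to 156 in the Astrocyte-like class, and beside the Slc17a7 shares given above. The Glutamatergic-like call was lost, at log2 fold changes of -0.355 to -0.32 and edgeR adjusted p of 0.0501 to 0.0609, without the high-Gm42418 mice and without each of WT alcohol mice 7 and 18, 3xTg-AD control mice 13 and 21 and 3xTg-AD alcohol mice 4, 31 and 33.

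The lowest adjusted p for Sorl1 was in the upper-layer neurons. In L2/3 IT-like neurons its level was 146.8, 155.0, 125.6 and 131.2 CPM in WT control mice, 113.6, 157.9, 115.0 and 132.0 CPM in WT alcohol mice, 92.5, 91.0, 96.0 and 72.4 CPM in 3xTg-AD control mice and 84.0, 86.5, 93.4 and 133.9 CPM in 3xTg-AD alcohol mice. All 3xTg-AD mice except alcohol mouse 34 lay below the lowest WT mouse. Sorl1 fell by 0.53 ± 0.10 on the log2 scale (edgeR adjusted p = 0.00433), and this call held in every alternative run. L5 IT-like neurons gave the other call, with Sorl1 lower by 0.38 ± 0.10 (edgeR adjusted p = 0.0446). These were 2 calls among 82 tests over subclasses, where 1.05% of all tests were called. Of the 82, 13 had an unadjusted p under 0.05 (10.6% of all tests). The L5 IT-like call was lost without the high-Gm42418 mice. It was also lost without WT control mouse 26 or 27, or WT alcohol mouse 7, 17 or 18. Leaving out 3xTg-AD control mouse 12, 13 or 21, or 3xTg-AD alcohol mouse 4, 31 or 33, lost it too. These runs gave log2 fold changes of -0.383 to -0.302 and edgeR adjusted p of up to 0.173. In L5 ET-like and L5/6 NP-like neurons, where Sorl1 was most abundant, the values were -0.31 ± 0.10 (edgeR adjusted p = 0.142) and -0.40 ± 0.12 (0.188), and in Vip-like interneurons -0.10 ± 0.19 (0.962).

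**Figure D2:**
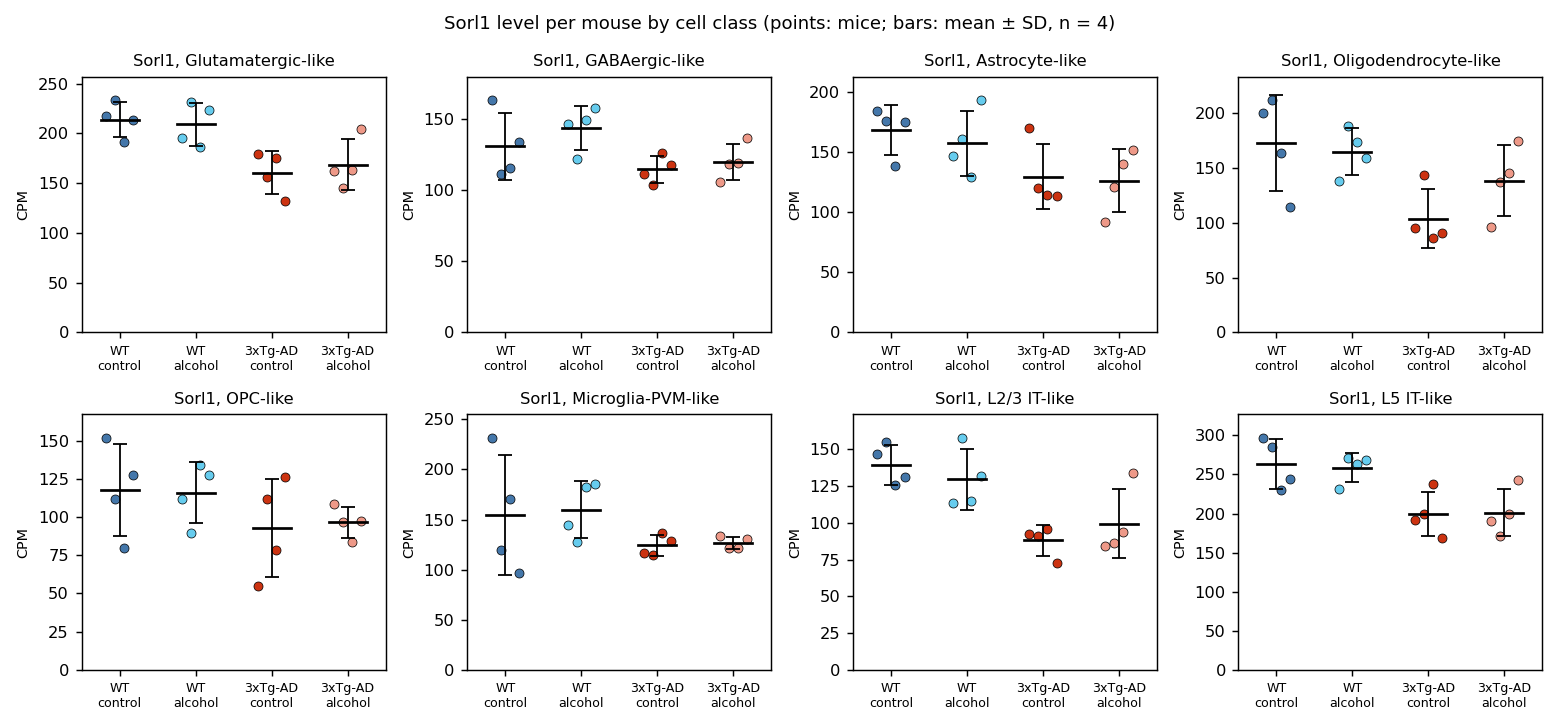
Sorl1 level in CPM per mouse in 6 cell classes and 2 neuron subclasses (points, mice of the 4 groups; bars and whiskers, mean ± SD, n = 4). In the L2/3 IT-like panel the 3xTg-AD points sit at 72.4 to 96.0 CPM, except for 1 alcohol mouse at 133.9 CPM, and the WT points at 113.6 to 157.9 CPM.

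Within treatments, the Sorl1 difference in the sum of all nuclei was -0.36 ± 0.10 between the control groups (edgeR adjusted p = 0.18) and -0.27 ± 0.10 between the alcohol groups (0.242). None of the 9 genes was called in these comparisons by edgeR, against 0.435% and 0.942% of all genes, while 1 and 2 of them, and 1372 and 2348 of all 16767 genes, had an unadjusted p under 0.05. DESeq2 called 1 of the 9, Sorl1, between the control groups and 0 between the alcohol groups, against 0.896% and 2.09% of all genes by DESeq2. In L2/3 IT-like neurons Sorl1 fell by 0.66 in 3xTg-AD control against WT control mice (edgeR adjusted p = 0.0357), the 1 call of 82 subclass tests in this comparison (0.197% of all tests). Under alcohol the L2/3 IT-like value was -0.40 (edgeR adjusted p = 0.264), and the difference between these effects was 0.27 (0.977), so an unequal effect was not shown. The call between controls was lost without the high-Gm42418 mice, at -0.57 (edgeR adjusted p = 0.364). It was also lost without WT control mouse 26, 27 or 36, 3xTg-AD control mouse 12, 13, 14 or 21, or 3xTg-AD alcohol mouse 33. The values without these single mice were -0.71 to -0.58.

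The precursor genes did not pass the test between genotypes. App was 568.1, 430.6, 524.6 and 551.3 CPM in WT control mice, 652.4, 616.6, 583.1 and 594.9 CPM in WT alcohol mice, 448.2, 502.6, 566.1 and 518.9 CPM in 3xTg-AD control mice and 503.3, 388.8, 542.3 and 488.8 CPM in 3xTg-AD alcohol mice. All 4 WT alcohol mice lay above every mouse of the other groups, which overlapped. The App log2 fold change between genotypes was -0.19 ± 0.08 (edgeR adjusted p = 0.276), made up of -0.03 between the control groups (0.978) and -0.35 ± 0.12 between the alcohol groups (0.19). Its interaction of genotype and alcohol was -0.32 ± 0.17 (edgeR adjusted p = 0.944). In the neuron subclasses the App fold change between genotypes was below 0 in 11 of 11, from -0.37 to -0.10, with an unadjusted p under 0.05 in L5 IT-like and Vip-like neurons and no call.

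Aplp2 had a log2 fold change of -0.16 ± 0.08 between genotypes in the sum of all nuclei (edgeR adjusted p = 0.299), with means of 338 ± 32.1 CPM in WT and 302 ± 31.2 CPM in 3xTg-AD mice (SD, n = 8 each). Aplp1 stood at 391 ± 55.7 CPM in WT and 388 ± 61.7 CPM in 3xTg-AD mice, a log2 fold change of -0.003 (edgeR adjusted p = 0.995). For the secretases, the genotype values were -0.10 ± 0.07 for Adam10 (edgeR adjusted p = 0.482), -0.06 ± 0.12 for Psen2 (0.866), -0.01 ± 0.07 for Bace1 (0.959), 0.05 ± 0.08 for Aph1a (0.841) and 0.08 ± 0.08 for Ncstn (0.705). The WT and 3xTg-AD mice overlapped for each of these genes.

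**Figure D3:**
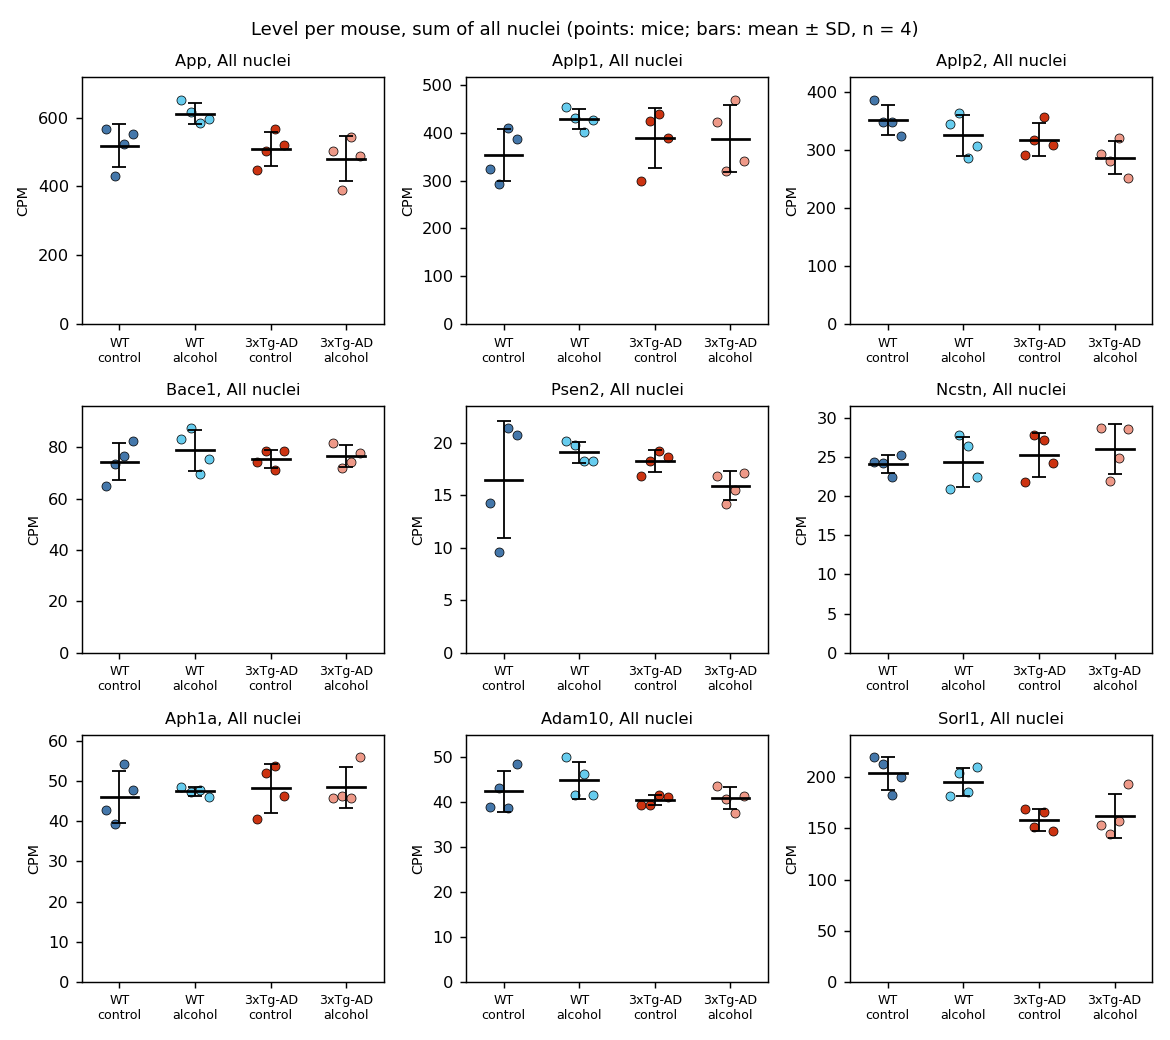
Level in CPM of the 9 genes per mouse in the sum of all nuclei (points, mice of the 4 groups; bars and whiskers, mean ± SD, n = 4). The Sorl1 panel shows 7 of 8 3xTg-AD mice below the WT mice, and the Psen2 panel shows WT control mice 26 and 27 at 14.3 and 9.62 CPM, below the other WT mice at 18.2 to 21.4 CPM.

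Alcohol changed none of the 9 genes by the test used. Averaged over genotype, 0 of 9 were called by edgeR and by DESeq2 in the sum of all nuclei and 0 of 9 had an unadjusted p under 0.05. Of all genes 3.3% were called by edgeR and 20.9% had an unadjusted p under 0.05. The median log2 fold change was 0.028 over the 9 genes beside 0.0065 over all genes. The widest values were 0.14 ± 0.10 for Aplp1 (edgeR adjusted p = 0.464), -0.13 ± 0.08 for Aplp2 (0.342) and 0.08 ± 0.08 for App (0.634), and the other 6 genes lay between -0.02 and 0.05. Without the mice of high Gm42418 the Aplp1 value was -0.0017 and that of Psen2 -0.1898. Over classes 0 of 56 tests were called (1.34% of all tests) and 3 had an unadjusted p under 0.05 (14.8% of all tests), and over subclasses 0 of 82 (0.798%) with 8 under 0.05 (13.2%). DESeq2 also called 0 in both, against 1311 of 65476 class tests and 1001 of 50313 subclass tests over all genes.

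The lowest unadjusted p under alcohol among the classes belonged to Aplp1 in the Oligodendrocyte-like class. It stood at 661.9, 567.0, 383.4 and 671.0 CPM in WT control mice and at 840.3, 802.8, 860.7 and 945.1 CPM in WT alcohol mice. In 3xTg-AD mice it was 651.3, 655.8, 592.9 and 599.2 CPM in the control and 835.4, 577.4, 914.3 and 693.8 CPM in the alcohol group. All 4 WT alcohol mice lay above the WT controls, and 3 of the 4 3xTg-AD alcohol mice above their controls. The log2 fold change was 0.40 ± 0.12 (edgeR adjusted p = 0.204), on 21 to 332 UMIs per mouse. In neuron subclasses the alcohol values of App (0.03 to 0.33) and Aplp1 (0.13 to 0.38) lay above 0 in 11 of 11 and those of Aplp2 (-0.27 to 0.09) below 0 in 8 of 11, none called.

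**Figure D4:**
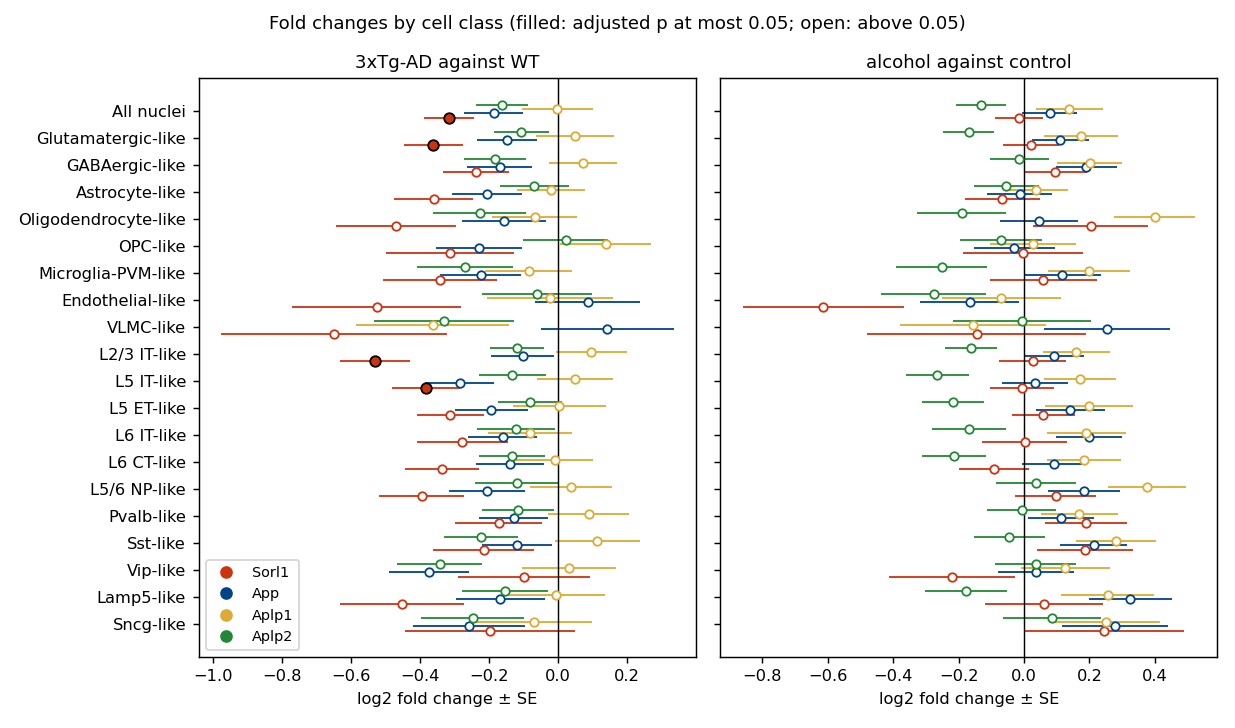
Log2 fold change ± SE of Sorl1, App, Aplp1 and Aplp2 in the sum of all nuclei, each class and each neuron subclass, for 3xTg-AD against WT (left) and alcohol against control (right), with filled points for an adjusted p of at most 0.05. Filled points occur only for Sorl1 in the left panel, at -0.32 (all nuclei), -0.36 (Glutamatergic-like), -0.53 (L2/3 IT-like) and -0.38 (L5 IT-like), and all of its genotype values lie left of 0.

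Within WT mice alcohol gave 0.24 ± 0.12 for App (edgeR adjusted p = 0.374) and 0.28 ± 0.15 for Aplp1 (0.389), and within 3xTg-AD mice -0.08 ± 0.12 (0.874) and -0.003 ± 0.15 (0.999). In the sum of all nuclei neither comparison called any of the 9 genes by edgeR or DESeq2, with 0 under an unadjusted p of 0.05. DESeq2 called 1.96% and 2.05% of all genes it tested. Of all 16767 genes 0.0179% and 0.483% were called by edgeR, and 2377 and 2013 had an unadjusted p under 0.05. Between 3xTg-AD alcohol and WT control mice, the pair of groups that differed in genotype and treatment at once, Sorl1 stood at -0.33 ± 0.10 (edgeR adjusted p = 0.0759) and Aplp2 at -0.29 ± 0.11 (0.133). Here 0 of 9 were called by edgeR (4.06% of all genes), 2 had an unadjusted p under 0.05 (20.1% of all genes), and DESeq2 called these 2 (6.39% of all genes by DESeq2). This comparison and those above share control mice. No interaction of genotype and alcohol was called for any of the 9 genes in the sum of all nuclei by edgeR or DESeq2, with 0 under an unadjusted p of 0.05. Of all genes edgeR called 0 (0.0%), with 583 under 0.05.

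A fixed list of 51 other genes of the pathway, of which 50 had enough counts, gave the surroundings of the 9 genes. Between genotypes 0 rose and 1 fell in the sum of all nuclei, where 1.51% and 1.77% of all genes rose and fell. The list's median log2 fold change was -0.04, and 10 of the 50 had an unadjusted p under 0.05 (16.2% of all genes). Over the classes 2 of 256 tests were called higher and 2 lower (0.71% and 0.838% of all tests). Under alcohol 0 of the 50 were called in the sum of all nuclei, with 5 under an unadjusted p of 0.05 (20.9% of all genes), and 2 of 256 class tests were called higher and 0 lower (0.512% and 0.824% of all tests). No gene of the β side, the α side, sorting or amyloid-β degradation was called by edgeR in either comparison in the sum of all nuclei or the classes, with 9, 3, 5 and 1 of 32, 49, 66 and 15 class tests between genotypes at an unadjusted p under 0.05. With alcohol these counts were 0, 11, 3 and 1. In the sum of all nuclei the counts between genotypes were 4, 2, 2 and 0 of 6, 11, 12 and 4 genes. With alcohol they were 0, 1, 2 and 0 there. Of all class tests 11.4% between genotypes and 14.8% with alcohol had an unadjusted p under 0.05.

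The γ-secretase genes outside the 9 held 3 of the 4 genotype calls in classes. Psenen, which encodes the PEN2 subunit, was lower in 3xTg-AD mice. In the Glutamatergic-like class it stood at 56.2, 64.1, 60.1 and 69.3 CPM in WT control and 62.1, 74.7, 79.2 and 81.4 CPM in WT alcohol mice. In 3xTg-AD mice it was 40.3, 45.6, 53.5 and 43.3 CPM in the control and 50.8, 38.2, 61.6 and 47.6 CPM in the alcohol group. Of the 8 3xTg-AD mice 7 lay below every WT mouse, with alcohol mouse 33 the exception. Psenen fell by 0.52 ± 0.09 on the log2 scale in this class (edgeR adjusted p = 0.0040) and by 0.49 ± 0.12 in the GABAergic-like class (edgeR adjusted p = 0.0211). The GABAergic-like call was lost without WT control mouse 36, 3xTg-AD control mouse 21 or 3xTg-AD alcohol mouse 31 and with classes by markers in each nucleus. These runs gave -0.56 to -0.41, at edgeR adjusted p of up to 0.082. In the sum of all nuclei Psenen fell by 0.39 ± 0.11 (edgeR adjusted p = 0.0485). This call was lost without the high-Gm42418 mice and without any mouse other than WT control 26, WT alcohol 6, 3xTg-AD control 14 or 3xTg-AD alcohol 33. The lost runs gave -0.42 to -0.34, at edgeR adjusted p of up to 0.0935.

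Psenen had a log2 fold change below 0 in 10 of 10 tested neuron subclasses, and 3 were called. These were the genotype calls among 382 subclass tests of the listed genes, where 1.05% of all tests were called. L6 CT-like (corticothalamic) neurons showed it most plainly, with 74.3 ± 11.002 CPM in WT and 44.2 ± 5.48 CPM in 3xTg-AD mice (SD, n = 8 each) and no overlap between them. There it fell by 0.77 ± 0.13 on the log2 scale (edgeR adjusted p = 0.000214), and in L2/3 IT-like neurons by 0.57 ± 0.11 (edgeR adjusted p = 0.00433). Pvalb-like interneurons gave -0.68 ± 0.18 (edgeR adjusted p = 0.0466). DESeq2 did not make this call (-0.67, DESeq2 adjusted p = 0.272). It was lost without WT control mouse 27 or 36, WT alcohol mouse 17 or 18, or 3xTg-AD control mouse 14 or 21. Without 3xTg-AD alcohol mouse 4, 31 or 34 it was lost too. The values without these single mice were -0.69 to -0.55. Psenen (chr7:30561863-30563627, minus strand) overlaps U2af1l4 on the opposite strand, and the part of U2af1l4 reads in its counts was not tested.

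Gsap, which encodes γ-secretase activating protein, had the largest change of the listed genes, in the Microglia-PVM-like class. WT control mice had 53.5, 39.8, 31.9 and 16.1 CPM and WT alcohol mice 26.7, 29.4, 27.2 and 42.1 CPM. 3xTg-AD control mice had 97.7, 83.6, 75.3 and 112.1 CPM and 3xTg-AD alcohol mice 62.4, 133.3, 67.0 and 92.5 CPM. Every 3xTg-AD mouse lay above every WT mouse. Gsap rose by 1.45 ± 0.25 on the log2 scale (edgeR adjusted p = 8.85e-05), on 3 to 47 UMIs per mouse, and the call held in every alternative run. Gsap was more abundant in the OPC-like (109 ± 36.4 CPM) and Astrocyte-like classes (99.5 ± 19.5 CPM), where its log2 fold changes were 0.48 ± 0.19 (edgeR adjusted p = 0.49) and 0.34 ± 0.12 (0.22). In the neuronal classes its values were below 0, at -0.62 ± 0.26 in the Glutamatergic-like class (edgeR adjusted p = 0.242), where its level was 3.38 ± 1.57 CPM, and -0.30 ± 0.23 in the GABAergic-like class (0.674). The part of stray RNA from those classes in the microglial value was not tested. Gsap overlaps Ccdc146 on the opposite strand.

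**Figure D5:**
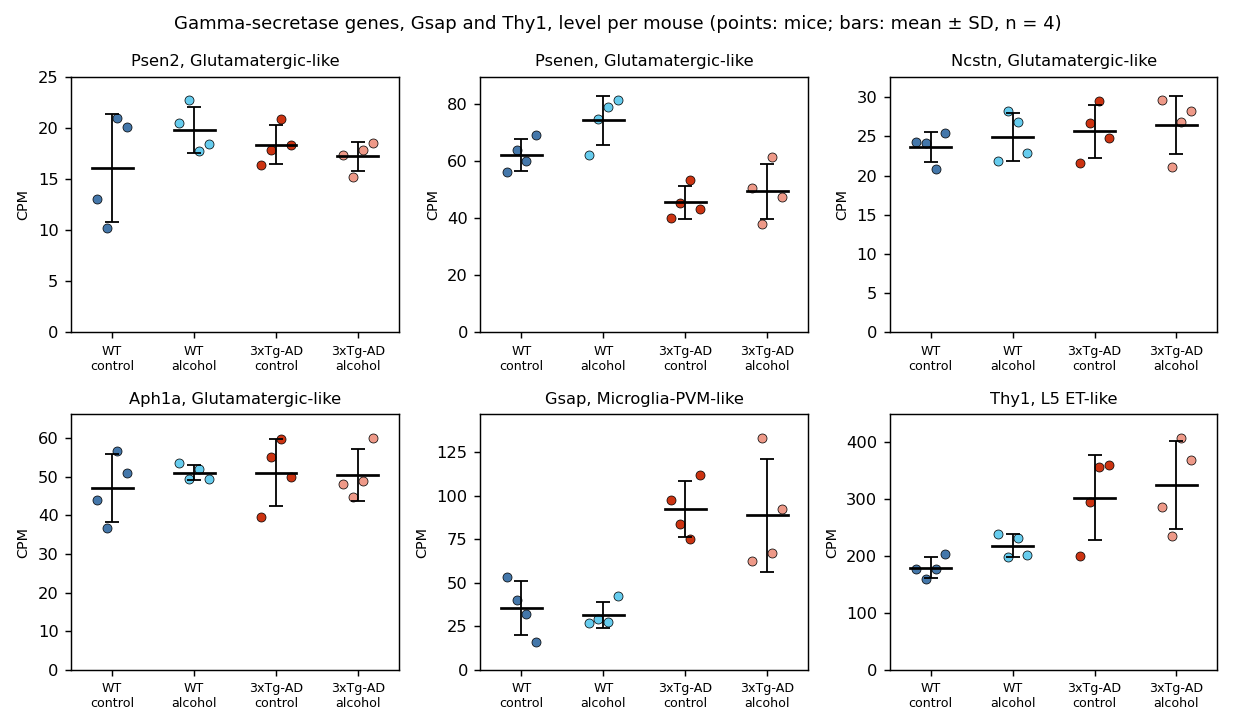
Level in CPM per mouse of the γ-secretase genes Psen2, Psenen, Ncstn and Aph1a in the Glutamatergic-like class, of Gsap in the Microglia-PVM-like class and of Thy1 in L5 ET-like neurons (points, mice of the 4 groups; bars and whiskers, mean ± SD, n = 4). Psenen lies at 38.2 to 61.6 CPM in 3xTg-AD mice and 56.2 to 81.4 CPM in WT mice, and Gsap at 62.4 to 133.3 CPM and 16.1 to 53.5 CPM.

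Of the adaptors and binding proteins of APP, Dab1, an adaptor that binds the tails of APP and of lipoprotein receptors, was called higher in 3xTg-AD mice in the Astrocyte-like class. It stood at 150 ± 19.4 CPM in WT and 204 ± 21.01 CPM in 3xTg-AD mice (SD, n = 8 each), with 7 of 8 3xTg-AD mice above every WT mouse. Dab1 rose by 0.44 ± 0.10 on the log2 scale (edgeR adjusted p = 0.0170). This call was lost without the high-Gm42418 mice, at 0.35 (edgeR adjusted p = 0.163). It was also lost with WT control mouse 26 left out, at 0.39 (0.0632), and with 3xTg-AD control mouse 21 left out, at 0.41 (0.0564).

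Over the sum of all nuclei and the classes, both alcohol calls among the listed genes were for the BRI family, whose products ITM2B and ITM2C bind APP and restrain its cleavage. Itm2b in the GABAergic-like class stood at 224.3, 309.5, 297.9 and 314.1 CPM in WT control, 458.8, 392.3, 414.9 and 413.0 CPM in WT alcohol, 228.6, 258.9, 323.2 and 290.1 CPM in 3xTg-AD control and 381.3, 288.0, 414.1 and 328.0 CPM in 3xTg-AD alcohol mice. The WT groups did not overlap and the 3xTg-AD groups did. Itm2b rose by 0.46 ± 0.10 on the log2 scale with alcohol averaged over genotype (edgeR adjusted p = 0.00945). The call was lost with classes by markers in each nucleus, at 0.37 (edgeR adjusted p = 0.105). With the Meis2 nuclei in the class it was lost at 0.40 (0.0809). Itm2c in the Astrocyte-like class rose by 0.38 ± 0.10 (edgeR adjusted p = 0.0455). This call was lost in 14 of 23 alternatives, at 0.28 to 0.41 and edgeR adjusted p of up to 0.233. The share of nuclei in no class was highest in WT alcohol mice, as given above, and its part in these values was not tested.

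Thy1, whose regulatory cassette drives the human transgenes, was measured in the same fits as molecules assigned to the mouse gene, and whether transcripts of the cassette were counted among them was not tested. In L5 ET-like neurons it rose by 0.65 ± 0.12 on the log2 scale in 3xTg-AD mice, from 199 ± 27.3 CPM to 314 ± 71.7 CPM (SD, n = 8 each; edgeR adjusted p = 0.00479), and in the sum of all nuclei it stood at 0.25 ± 0.11 (0.268). This was 1 call of 11 subclasses (1.05% of all subclass tests), of which 2 lay below 0 with a median log2 fold change of 0.13, and 0 of 8 classes were called.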

How the data were processed

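Medial prefrontal cortex nuclei of 16 mice were profiled with the 10x Genomics 3′ kit v3.1. Per the labels and the study's methods, the authors aligned the reads to mm10 with Cell Ranger 6.1.1 (STAR) and deposited raw UMI counts per gene and nucleus, which are the values used here. Nuclei were clustered (scanpy 1.11.5, 2000 variable genes, 30 components, without the 9 genes and the listed pathway genes) and clusters named from fixed markers. Counts were summed per mouse over all nuclei, classes or subclasses with at least 10 nuclei. Sums were tested with edgeR 4.0.16 (TMM, filterByExpr, robust quasi-likelihood test, a mean per group, 16 mice in 1 fit, 15 for the VLMC-like class), with Benjamini-Hochberg adjustment over all genes of a unit and contrast and calls at 0.05. L6b-like neurons and the Pericyte-like class had too few nuclei. DESeq2 1.42.0, other size factors, filters, nucleus sets, class assignments and leaving out mice were the alternatives. Gene positions come from GENCODE on GRCm38 (mm10). Levels across classes were described without a test, and neighbours were said to differ where the mean within-mouse difference of log2(CPM + 1) exceeded its SD over the mice.

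The 9 genes, the list of 51 pathway genes and the markers were chosen with earlier results of these data known. Named genes were the 9, listed genes called in the sum of all nuclei or a class in the genotype or alcohol comparison, Thy1 and the 3 nearest genes by pattern, apart from genes not reported here. The genotype fit was run on simulated counts of all nuclei (16539 genes), Glutamatergic-like (15199), L2/3 IT-like (12686) and Astrocyte-like nuclei (9927). It recovered 81.2%, 80.3%, 61.6% and 41.3% of the 64, 71, 73 and 63 genes changed by 0.5 log2 units, and 100% at 1. False calls among unchanged genes were 10, 13, 10 and 16. Changed genes had to reach a minimum mean count and all genes shared 1 dispersion, so sparser genes were not covered. The dispersion was set in advance and not fitted to these data. No change below 0.5 log2 units was simulated, so recovery of the smaller changes reported here was not covered.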

Additional observations from a re-analysis of the deposited data

Results flagged for a closer look

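In 7 of 123 groups of 4 mice a mouse stood apart from the other 3 by Dixon's criterion, which flags about 1 in 20 groups by chance. All levels are in CPM. Aph1a in the sum of all nuclei was 55.98 in 3xTg-AD alcohol mouse 34 against 45.73 to 46.43 in the rest of its group. Sorl1 was 169.8 in the Astrocyte-like class of 3xTg-AD control mouse 12 (others 113.6 to 120.2), and without this mouse the Astrocyte-like genotype difference was called (edgeR adjusted p = 0.0461). Sorl1 was 144.0 in the Oligodendrocyte-like class of 3xTg-AD control mouse 13 (others 85.82 to 95.64). App in the Glutamatergic-like class was 440.5 in 3xTg-AD control mouse 14 (others 367.3 to 378.4) and 303.6 in 3xTg-AD alcohol mouse 31 (others 400.1 to 412.2). Psenen in the GABAergic-like class was 36.4 in 3xTg-AD control mouse 21 (others 59.74 to 63.75). Gsap in the Microglia-PVM-like class was 42.12 in WT alcohol mouse 18 (others 26.74 to 29.37).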

How the results depend on the processing

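No paired analysis was possible because each mouse number occurs in 1 group only. In settings other than leaving out a mouse, 177 values (counts of called members within 1.5 times the reported count, and levels in the highest class within 1 SD) did not move by more than that, and 8 counts did. Without the mice of high Gm42418 the genotype calls were 0 in the sum of all nuclei (1 reported), 0 in classes (1) and 1 in subclasses (2). Those between controls in subclasses were 0 (1). Calls for 3xTg-AD alcohol against WT control in all nuclei were 1 (0), and the gene called was Psen2. DESeq2 gave 1 call between controls in all nuclei (0 reported) and, for 3xTg-AD alcohol against WT control, 2 in all nuclei (0) and 1 in subclasses (0). Leaving out a mouse gave 0 to 1 genotype calls in all nuclei, 0 to 2 in classes and 1 to 2 in subclasses, 0 to 1 between controls in subclasses, and 0 to 1 for 3xTg-AD alcohol against WT control in all nuclei and in subclasses. The cause was not tested, and the runs that left out mice also had fewer mice. DESeq2 called 926 genes by genotype and 1147 by alcohol in all nuclei, against 550 and 553 by edgeR.

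Some uncalled log2 fold changes changed sign, among them Aplp1 by alcohol (0.14 reported) and Sorl1 by genotype in Vip-like neurons (-0.10). By genotype in all nuclei Aplp1 was 0.0028 with DESeq2, 0.0027 with its size factors, 0.0030 with strict nuclei (at least 500 genes, at most 5% mitochondrial UMIs) and -0.0551 to 0.0506 without a mouse, Bace1 -0.0414 to 0.0148 and Psen2 -0.1516 to 0.0090. Sorl1 in Vip-like neurons was 0.0569 without the high-Gm42418 mice and -0.1632 to 0.0274 without a mouse. By alcohol, without the high-Gm42418 mice, Aplp1 was -0.0017, Bace1 -0.0034, Psen2 -0.1898, Ncstn -0.0001, Aph1a -0.0877 and Sorl1 0.0451. Psen2 was -0.0011 with DESeq2, -0.0018 with its size factors, -0.0026 with strict nuclei and -0.0031 without nuclei of high UMIs, where Ncstn was -0.0034. Leaving out a mouse gave -0.0874 to 0.0733 for Psen2, -0.0038 to 0.0652 for Ncstn, -0.0137 to 0.068 for Aph1a and -0.0616 to 0.0110 for Sorl1. Levels in the highest class moved by less than 1 SD in the 3 alternatives run (for Psen2, whose highest class was VLMC-like, 1), but the highest class of Adam10 became the Endothelial-like class (79.09 against 75.24 CPM) without the high-Gm42418 mice, and that of Ncstn the OPC-like class (41.3 against 40.11 CPM) with classes by markers in each nucleus. Depth limits the γ-secretase genes in glial and vascular classes, where fewer than 20 UMIs per mouse were common.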

Other observations

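Itm2b, the BRI2 gene, was above 0 with alcohol in every unit tested. Its log2 fold change averaged over genotype ran from 0.33 to 0.51 over 8 of 8 classes. It ran from 0.29 to 0.55 over 11 of 11 neuron subclasses. Each had an unadjusted p under 0.05, as had 14.8% of all class and 13.2% of all subclass tests. Within WT mice this held in 7 of 8 classes and 10 of 11 subclasses. Within 3xTg-AD mice it held in 3 and 5. None of these was called, nor any interaction with genotype. In the sum of all nuclei Itm2b was not called with alcohol, and the part of stray RNA was not tested. The subclass calls were in L2/3 IT-like neurons, where Itm2b rose by 0.38 ± 0.09 on the log2 scale (edgeR adjusted p = 0.0342), and in Pvalb-like interneurons, where it rose by 0.49 ± 0.11 (edgeR adjusted p = 0.0224). Itm2c rose by 0.36 ± 0.09 in L2/3 IT-like neurons (edgeR adjusted p = 0.0312). These were 3 calls among 382 subclass tests of the listed genes, where 0.798% of all subclass tests were called. Whether these calls held in the alternative runs was not examined. Classes of a mouse share a library, so these values are not independent of each other.

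Psen2 in the sum of all nuclei was 14.3 CPM in WT control mouse 26 and 9.62 CPM in mouse 27, both of high Gm42418, against 21.4 and 20.8 CPM in the other WT control mice, and 16.9 CPM in 3xTg-AD control mouse 12, also of high Gm42418, against 18.2 to 19.3 CPM in its group. The part of Gm42418 in these values was not tested.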
